A study of Mus musculus with 16 samples.

Results

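The 94 genes described here encode the transporters that carry bile acids, lipids, drugs and organic ions across membranes. They are the protein-coding genes whose symbols belong to the ATP-binding cassette (ABC) families A, B, C, D and G, the SLCO organic anion transporters, the SLC22 organic cation and anion transporters, the SLC10 bile acid carriers and the SLC47 extruders, and they were chosen by symbol among 47719 genes. The rule uses symbols and no measured value. The families held 16 ABCA, 10 ABCB, 10 ABCC, 4 ABCD, 6 ABCG, 7 SLC10, 25 SLC22, 2 SLC47 and 14 SLCO genes. The counts passed the filter on low values for 67 of them, which were tested. The other 27 were too low to test, and 4 of these (Abca16, Slc10a4, Slc22a16 and Slco6d1) had no read in any library.

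A hepatocyte takes up solutes from blood at its basolateral membrane, mainly by SLC10, SLCO and SLC22 carriers that use ion gradients or exchange. ABC pumps then use ATP to push bile salts, phospholipid, cholesterol, conjugates and drugs across the canalicular membrane into bile, and other ABCC pumps send conjugates back to blood. Further ABC proteins work inside the cell, in peroxisomes, mitochondria and lysosome-related organelles. Many of these genes are known to depend on age, sex, nuclear receptors and the time of day in rodent liver.

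RNAseq was performed on livers of wild-type C57BL/6 males bought from Harlan, in 16 libraries of 6 groups. Untreated mice of 1 and 6 months gave 2 libraries per age, and mice given diethylnitrosamine (DEN), a liver carcinogen that is activated by hepatocyte enzymes, gave 3 libraries per age on day 2 and 3 on day 6 after the injection. The sample labels give a dose of 25 mg/kg where the methods print the same figure per g, and they give the younger mice as 3-4 weeks old. Each library was made from equal RNA of 3 pooled mice, so every spread and p-value below is between pools, and the labels give controls a time point of 0 with none for day 2 or day 6, so in the young mice days of growth cannot be told apart from DEN. All mice were males of 1 strain.

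Libraries held 19039330 to 34459774 counts, and the 94 genes took 0.881% to 1.03% of them. Of 10 hepatocyte markers 9 were found in every group, and the albumin gene was listed at 0 throughout. Of all libraries, 3 of 1-month old mice (control replicate 2, DEN day 2 replicate 3 and DEN day 6 replicate 2) stood apart in clock genes. Their clock score, the mean log2 level of 9 genes such as Dbp and Per2 minus that of 5 genes such as Arntl, was -2.19 to -0.77 against -0.03 to 4.93 in the other 13. These libraries also had 2.18% to 3.52% of counts from mitochondrial genes against 3.82% to 5.28%, a TMM scaling factor of 0.906 to 0.926 against 0.971 to 1.097, and 12.7% to 13.7% of counts in their top 10 genes against 10.7% to 12.03%. Where their removal ended a call named below, that is said beside it.

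Per kb of exon, the highest levels belonged to uptake carriers. Slco1b2, the main liver organic anion carrier, had a median of 314 CPM (counts per 1e6 counts) per kb (range 235 to 343 over 16 libraries), and Slc10a1, the sodium-dependent bile acid carrier NTCP, had 306 (155 to 443). Slco1a1, an anion carrier of male mouse liver, had 152 (121 to 184). The bile salt export pump Abcb11 was the highest ABC gene at 133 (65.3 to 252). The ranges of Slco1b2 and Slc10a1 overlapped, as did those of Slco1a1 and Abcb11. Transporters typical of kidney were near the floor, with 5 reads in all for Slc22a2, 2 for Slc22a6 and 10 for Slc22a8.

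**Figure D1:**
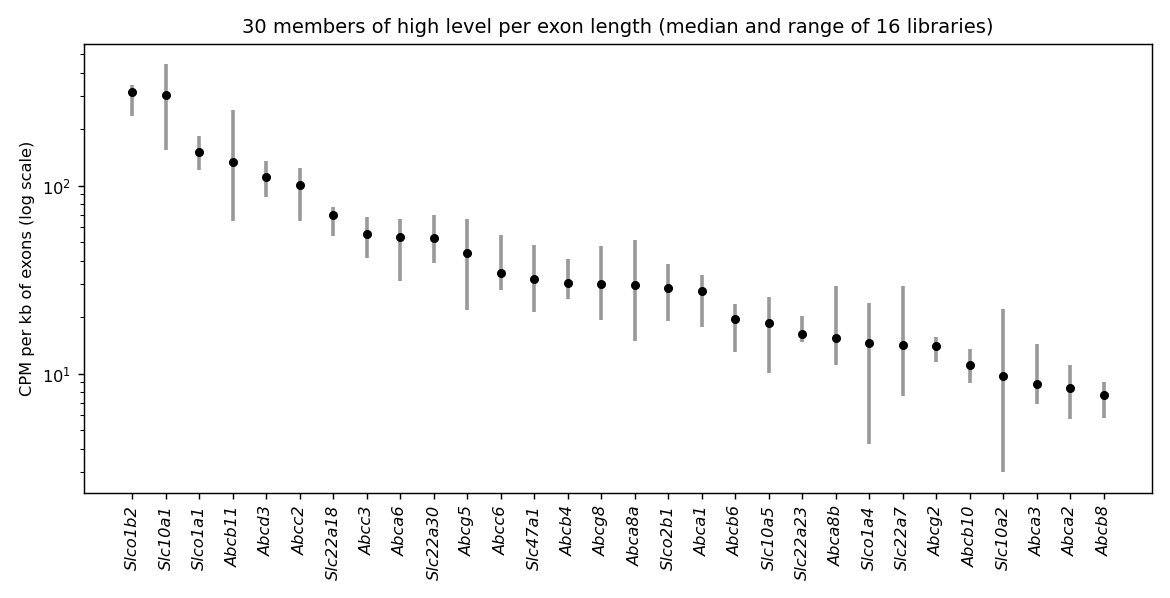
Level of 30 highly expressed members per kb of exons (vertical axis, log scale); points are medians and bars the range over 16 libraries. Uptake carriers Slco1b2 (314) and Slc10a1 (306) lead, and Abcb11, Slco1a4 and Slc10a2 have wide ranges.

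The first question was how the transporters differ between 1-month and 6-month old livers. Averaged over control, day 2 and day 6 (8 libraries per age), 24 of the 67 tested genes passed an adjusted p under 0.1 in edgeR's quasi-likelihood test, beside 22.6% of all 15684 genes. Of these, 8 were higher at 6 months (12.1% of all genes were) and 16 were lower (10.5% of all genes). Among controls alone (2 against 2 libraries) 7 of 67 passed, 1 higher and 6 lower, where 2.67% of all genes did (1.61% higher and 1.06% lower). The median log2 difference over the 67 genes was -0.05 in the average and -0.14 in controls, beside -0.01 and -0.01 over all genes tested. The 24 include Slc10a6 and Slc22a21, which entered the test only through the age where they were high, so their calls are no support. The plot of age differences gives the 95% intervals.

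**Figure D2:**
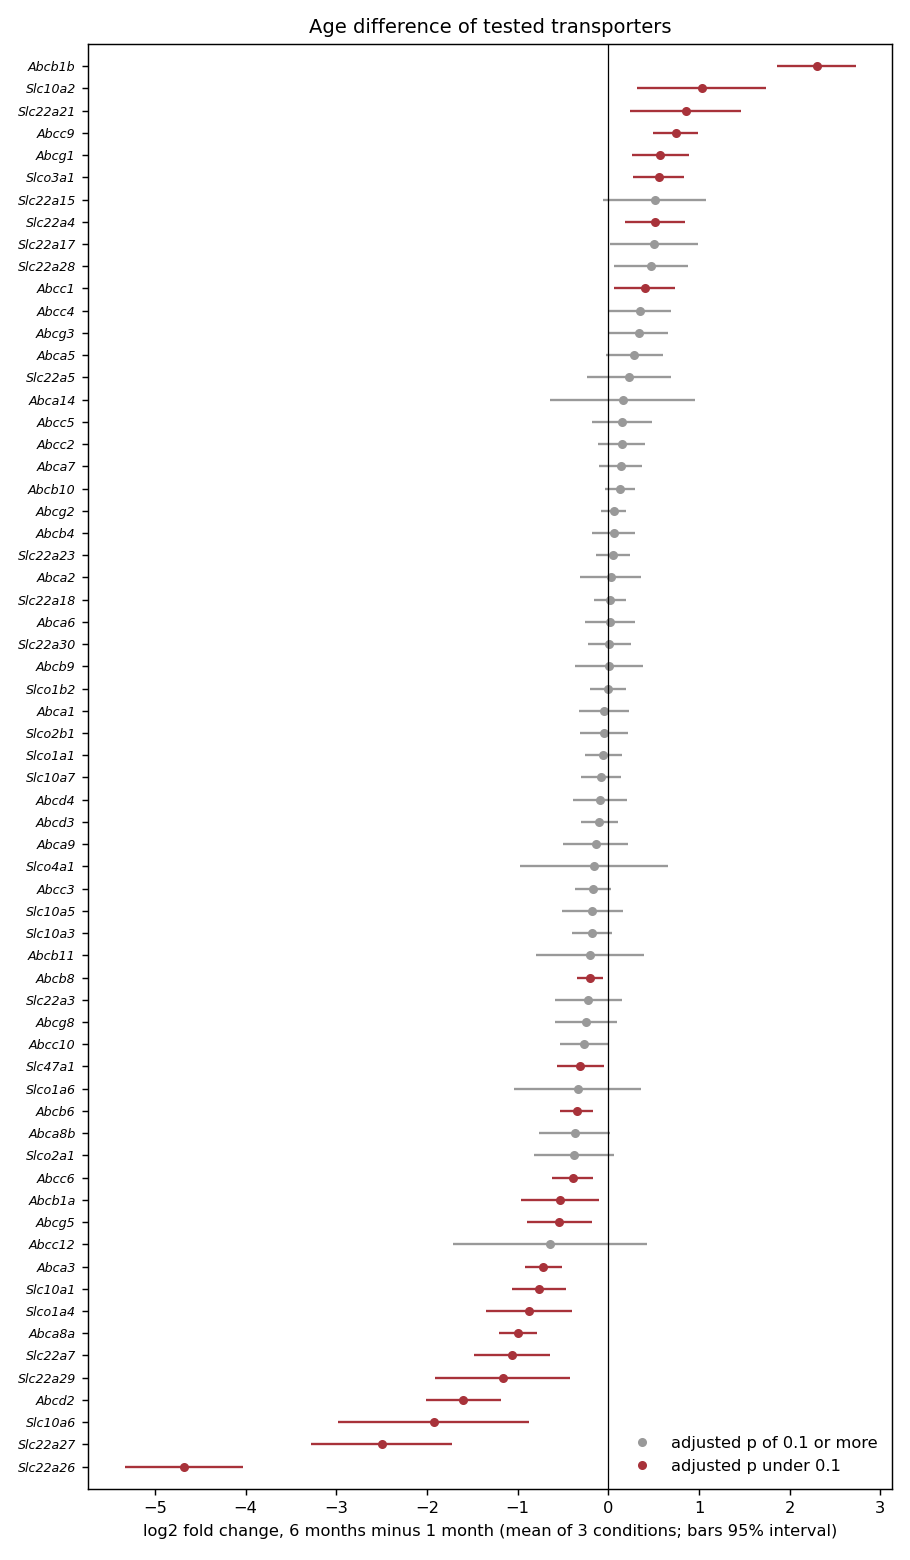
Log2 fold change of 6-month over 1-month old livers (horizontal axis, mean of 3 conditions) for tested transporters, with 95% intervals as bars. The 24 red genes had an adjusted p under 0.1; Slc22a26 lies farthest to the left at -4.68 and Abcb1b farthest to the right at 2.30.

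Slc22a26 and Slc22a27 had the lowest levels at 6 months relative to 1 month among the 67 genes. Their paralogue Slc22a29 was lower in controls and on average, but not on day 6 after DEN. These organic anion transporter paralogues lie in a cluster on the minus strand of chromosome 19 (GRCm38, 7781041 to 7802667, 7864388 to 7966027 and 8160165 to 8218900) together with Slc22a28 and Slc22a30. They are similar in sequence, and how reads shared between them were counted is not given, so their separate values are uncertain. The 250 bases before each RefSeq start site (GRCm38.p6, minus strand) are shown because these paralogues changed by such different amounts. They lie at chr19:7802668-7802917, chr19:7966028-7966277 and chr19:8218901-8219150. Neither the E-box CACGTG nor the D-box forms TTATGTAA and TTACGTAA, read on both strands, occurs in these windows, so no letter is in capitals.
Slc22a26: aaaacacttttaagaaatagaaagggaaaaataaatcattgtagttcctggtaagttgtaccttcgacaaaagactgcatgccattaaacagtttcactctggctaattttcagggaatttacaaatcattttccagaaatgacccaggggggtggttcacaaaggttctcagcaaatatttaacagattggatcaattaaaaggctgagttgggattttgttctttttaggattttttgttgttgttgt
Slc22a27: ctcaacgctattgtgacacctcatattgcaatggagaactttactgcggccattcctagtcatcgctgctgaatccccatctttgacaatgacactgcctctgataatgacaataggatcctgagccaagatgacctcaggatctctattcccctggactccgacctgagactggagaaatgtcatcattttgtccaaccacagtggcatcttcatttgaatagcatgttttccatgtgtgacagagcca
Slc22a29: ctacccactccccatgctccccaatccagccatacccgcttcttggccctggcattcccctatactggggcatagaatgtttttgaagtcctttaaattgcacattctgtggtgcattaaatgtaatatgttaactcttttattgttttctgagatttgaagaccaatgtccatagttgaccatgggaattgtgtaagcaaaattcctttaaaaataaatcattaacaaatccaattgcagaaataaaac

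Slc22a26 had 23.2 and 29.5 CPM in the 1-month controls and 1.12 and 0.484 CPM in the 6-month controls. Over all libraries it spanned 4.84 to 29.5 CPM (median 14.9) at 1 month and 0.251 to 1.12 CPM (median 0.570) at 6 months, so the ages did not overlap. The log2 difference was -4.68 (SE 0.30, adjusted p = 3.89e-07, edgeR), a 25.6-fold lower level, and -5.10 (SE 0.59, adjusted p = 0.000508) in controls alone.

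Slc22a27 measured 11.9 and 12.6 CPM in 1-month controls against 1.21 and 0.256 CPM in 6-month controls. Its difference in controls was -4.18 on the log2 scale (SE 0.77, adjusted p = 0.0158), and averaged over conditions it was -2.50 (SE 0.36, adjusted p = 0.00043). The difference in controls no longer passed without 6-month control replicate 2 (adjusted p = 0.154). Here the ages overlapped, with 3.21 to 37.3 CPM at 1 month and 0.256 to 4.11 CPM at 6 months. Slc22a29 was lower by -2.92 in controls (SE 0.73, adjusted p = 0.0712) and by -1.17 on average (SE 0.34, adjusted p = 0.0333). It had 2.15 and 2.82 CPM in 1-month controls against 0.607 and 0.114 CPM in 6-month controls. On day 6 after DEN it had 0.528, 1.35 and 1.06 CPM at 1 month. The 6-month values on day 6 were 2.42, 0.958 and 1.46 CPM, so the average joins unlike age differences. Without the 3 libraries of low clock score Slc22a29 no longer passed, at adjusted p of 0.281 in controls and 0.118 on average. Leaving out 6-month control replicate 2 gave 0.453 and 0.133, and leaving out 1-month control replicate 1 or 2 gave 0.117 and 0.3 in controls. The neighbouring Slc22a28 (log2 difference 0.47, SE 0.19, adjusted p = 0.109) and Slc22a30 (0.01, SE 0.11, adjusted p = 0.966) did not pass. Slc22a28 did pass as higher with no filter (adjusted p = 0.0222), with DESeq2 (0.0711), with the clock score as covariate (0.0581), without the 3 libraries of low clock score (0.0213), and without 1-month control replicate 2 (0.0721), DEN day 2 replicate 1 (0.0222) or DEN day 6 replicate 2 (0.0268) of the same age.

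Among basolateral uptake carriers of bile acids and organic anions, 3 of 6 were lower at 6 months, where 10.5% of all genes were, and none passed as higher. Slc10a1 spanned 710 to 973 CPM (median 906) at 1 month and 341 to 634 CPM (median 548) at 6 months. Every older library lay below every younger one, and the log2 difference was -0.77 (SE 0.14, adjusted p = 0.00217), or 1.7-fold. Slc22a7, the organic anion carrier OAT2, had a median of 48.1 CPM (26.5 to 61.2) and then 20.4 CPM (15.9 to 30.6), a difference of -1.06 (SE 0.20, adjusted p = 0.00233), with overlapping ranges. Slco1a4, which carries bile acids and cardiac glycosides, had 88.1 to 153 CPM (median 122) and then 27.1 to 112 CPM (median 69.3), a difference of -0.87 (SE 0.22, adjusted p = 0.0155).

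The other uptake carriers showed no age difference that passed. Slco1b2 had a median of 1535 CPM at 1 month and 1546 CPM at 6 months, with a log2 difference of -0.003 (95% interval -0.20 to 0.19). For Slco1a1 the medians were 821 and 801 CPM and the difference -0.05 (95% interval -0.26 to 0.15). The interval of Slco2b1, a carrier of sulphated steroids, was -0.31 to 0.22. By Spearman's rho of log2 CPM over 16 libraries and 66 other members, Slco1a4 was most like Abcd2 (0.86), Abcb6 (0.85) and Slc22a26 (0.85), whereas the nearest to Slco1a1 were Abcd4 (0.51), Abcb10 (0.43) and Abcc6 (0.41). These libraries share age groups and clock differences.

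Of the 2 genes of P-glycoprotein, the multidrug efflux pump of the canaliculus, Abcb1b was higher at 6 months. Abcb1a was lower on average, but not on day 6 after DEN. The 2 genes are neighbours on the plus strand of chromosome 5 (Abcb1a at 8660077 to 8748575, Abcb1b at 8798147 to 8866315). They are similar in sequence, so the split of reads between them is uncertain. Abcb1b lay between 0.349 and 1.3 CPM (median 1.01) in the 8 younger libraries and between 3.68 and 6.51 CPM (median 4.50) in the 8 older ones, with no overlap. The log2 rise was 2.30 (SE 0.20, adjusted p = 5.28e-06), or 4.91-fold, and it was 1.83 (SE 0.39, adjusted p = 0.0313) in controls, where it no longer passed without 1-month control replicate 1 or 2 or 6-month control replicate 2 (adjusted p = 0.143, 0.173 and 0.173). Abcb1a had 3.53 to 12.4 CPM (median 6.38) and 3.58 to 7.64 CPM (median 4.64), a difference of -0.53 (SE 0.20, adjusted p = 0.0905) that did not pass when any of 11 single libraries was left out (highest adjusted p = 0.332). On day 6 after DEN, Abcb1a had 4.51, 3.53 and 6.06 CPM at 1 month and 7.14, 4.24 and 3.85 CPM at 6 months. Abcb1b made up 4.94% to 22.3% of the summed CPM of the pair at 1 month and 35.4% to 59.7% at 6 months. The sum had a median of 6.95 CPM at 1 month and 10.2 CPM at 6 months, with overlapping ranges of 4.51 to 13.5 and 7.80 to 12.8 CPM.

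In the canalicular group as a whole, 1 of 8 genes was higher (Abcb1b) and 2 were lower (Abcg5 and Abcb1a), beside 12.1% and 10.5% of all genes, and both lower calls were lost when single libraries were left out. Abcg5, which pairs with Abcg8 to secrete sterols, had 91.0 to 181 CPM at 1 month and 59.1 to 133 CPM at 6 months, a difference of -0.54 (SE 0.17, adjusted p = 0.04). It no longer passed without 1-month control replicate 1 or 6-month control replicate 1 (adjusted p = 0.101 and 0.126). Abcg8 overlaps Abcg5 on the other strand, so reads of the pair cannot be told apart without strand, and had a difference of -0.24 (SE 0.16, adjusted p = 0.338). The bile salt pump Abcb11, the phospholipid floppase Abcb4, the conjugate pump Abcc2 (MRP2) and the drug pump Abcg2 (BCRP) did not pass. Their 95% intervals on the log2 scale were -0.80 to 0.40, -0.18 to 0.29, -0.12 to 0.41 and -0.08 to 0.20.

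Of the basolateral efflux pumps, Abcc6, the pump whose loss causes pseudoxanthoma elasticum, was lower at 6 months (184.8 against 229 CPM at the median, log2 -0.39, SE 0.11, adjusted p = 0.0218), but not without the 3 libraries of low clock score (adjusted p = 0.136). Abcc1 (MRP1) was higher by 0.40 (SE 0.16, adjusted p = 0.0978), from a median of 3.30 to one of 3.95 CPM. Abcc3 (MRP3, -0.17) and Abcc4 (MRP4, 0.35) did not pass, with adjusted p of 0.247 and 0.159. Apart from these basolateral pumps, the cation and toxin extruder Slc47a1 (MATE1) was lower by -0.31 (SE 0.12, adjusted p = 0.0969). It was not counted in the canalicular group above. Both Abcc1 and Slc47a1 sat at the threshold and passed in 8 of 22 alternative analyses. Neither passed without the 3 libraries of low clock score.

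Several ABCA and intracellular ABC genes were lower in older livers. Abca8a is a lipid transporter gene on chromosome 11 (110025634 to 110095978, minus strand) next to its paralogue Abca8b. It spanned 217 to 324 CPM (median 250) at 1 month and 93.8 to 156 CPM (median 134) at 6 months. The ages did not overlap, and the difference was -0.995 (SE 0.10, adjusted p = 1.69e-05). Abca8b, with 82.2 to 217 CPM and 94.0 to 142 CPM, did not pass (-0.37, SE 0.18, adjusted p = 0.191). The bases before their RefSeq start sites lie at chr11:110095938-110096187 and chr11:109995846-109996095 (GRCm38.p6, minus strand). For Abca8a the RefSeq start lies inside the gene as placed above, so the last bases of its window do too. The windows are shown because 1 of the 2 holds the E-box CACGTG, in capitals, 136 to 131 bases before the RefSeq start. That motif is in 6 of 86 windows of the 74 members in the RefSeq table and in 6.02% of all 32851 windows of 250 bases. A D-box is in 1 member window, that of Slc22a20, and in 0.931% of all windows.
Abca8a: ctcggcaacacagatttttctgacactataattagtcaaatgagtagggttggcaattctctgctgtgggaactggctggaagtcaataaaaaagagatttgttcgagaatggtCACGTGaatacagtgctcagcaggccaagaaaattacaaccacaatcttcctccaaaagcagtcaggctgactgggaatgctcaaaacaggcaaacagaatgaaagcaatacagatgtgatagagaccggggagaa
Abca8b: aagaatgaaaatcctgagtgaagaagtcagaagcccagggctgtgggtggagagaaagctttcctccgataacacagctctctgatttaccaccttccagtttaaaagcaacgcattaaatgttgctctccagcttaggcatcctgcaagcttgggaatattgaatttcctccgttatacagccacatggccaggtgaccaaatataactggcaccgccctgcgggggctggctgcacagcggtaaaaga

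Abca3, a phospholipid transporter of lamellar bodies, had 89.3 to 134 CPM (median 114) in younger and 64.7 to 75.4 CPM (median 68.8) in older livers, without overlap. It was lower by -0.72 (SE 0.10, adjusted p = 0.000223). Abcd2, a peroxisomal importer of very long-chain fatty acyl-CoA, spanned 32.5 to 93.4 CPM (median 60.7) and then 12.3 to 29.7 CPM (median 19.6), lower by -1.60 (SE 0.19, adjusted p = 9.04e-05). The peroxisomal gene Abcd3 (-0.10, SE 0.09, adjusted p = 0.521) did not pass. Of the mitochondrial genes, Abcb6, a porphyrin transporter, was lower by -0.35 (SE 0.08, adjusted p = 0.0129) with separate ranges. Abcb8 was lower by -0.20 (SE 0.07, adjusted p = 0.0528) but did not pass without 1-month control replicate 1, 6-month control replicate 1 or 6-month control replicate 2 (adjusted p = 0.105, 0.11 and 0.138), and Abcb10 did not pass.

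The members higher at 6 months, beside Abcb1b and Abcc1, included Abcc9, Slco3a1, Abcg1, Slc10a2 and Slc22a4. Abcc9, the sulphonylurea receptor subunit of a potassium channel in vessel wall cells, rose from a median of 16.6 CPM (13.6 to 21.7) to 30.2 CPM (21.2 to 34.2), by 0.74 (SE 0.12, adjusted p = 0.000722). Slco3a1 rose by 0.55 (SE 0.13, adjusted p = 0.0103) and Abcg1, which exports cholesterol from macrophages and other cells, by 0.57 (SE 0.15, adjusted p = 0.0159). Abcg1 no longer passed without the 3 libraries of low clock score (adjusted p = 0.108). Slc10a2, the apical bile acid carrier ASBT that cholangiocytes use, rose by 1.03 (SE 0.33, adjusted p = 0.0485) from a median of 29.3 to one of 50.7 CPM, but not without 1-month control replicate 1 or 6-month control replicate 1 (adjusted p = 0.129 and 0.16). The SLC22 gene Slc22a4 rose by 0.51 at under 4 CPM, but not without the 3 libraries of low clock score or without 6-month control replicate 2. Its relative Slc22a21 had 0.174 to 0.552 CPM at 1 month and 0.266 to 0.939 CPM at 6 months. Without the 3 libraries of low clock score Slc22a21 no longer passed. Only 1 younger library reached the 0.383 CPM that the filter asks of 2 libraries, against 7 older ones. Slc10a6 had 0.0920 to 0.816 CPM at 1 month and 0 to 0.187 CPM at 6 months, and 2 younger libraries and no older one reached that level.

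Some markers of liver cells differed with age too, where 12.1% of all genes were higher and 10.5% were lower. Of 7 stellate cell markers 3 were higher and 1 lower at 6 months (summed level 232 to 334 CPM at 1 month and 250 to 422 CPM at 6 months), and 3 of 7 Kupffer cell markers were higher (378 to 629 and 405 to 760 CPM). Of 7 sinusoidal endothelial markers 5 were lower (247 to 393 and 174 to 285 CPM), and 3 of 9 hepatocyte markers were lower (33866 to 52148 and 34390 to 41505 CPM). Of 6 tested cholangiocyte markers 1 was lower (sum of the 7 listed markers 36.7 to 68.2 and 47.7 to 83.7 CPM). Without the 3 libraries of low clock score, 0 of these 6 were lower and 1 was higher. In bulk liver, fewer cells of a type and less RNA per cell cannot be told apart, and the part of these cell types in the values of Abcc9, Abcg1, Slco3a1, Slc10a2 or the lower members was not tested.

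**Figure D3:**
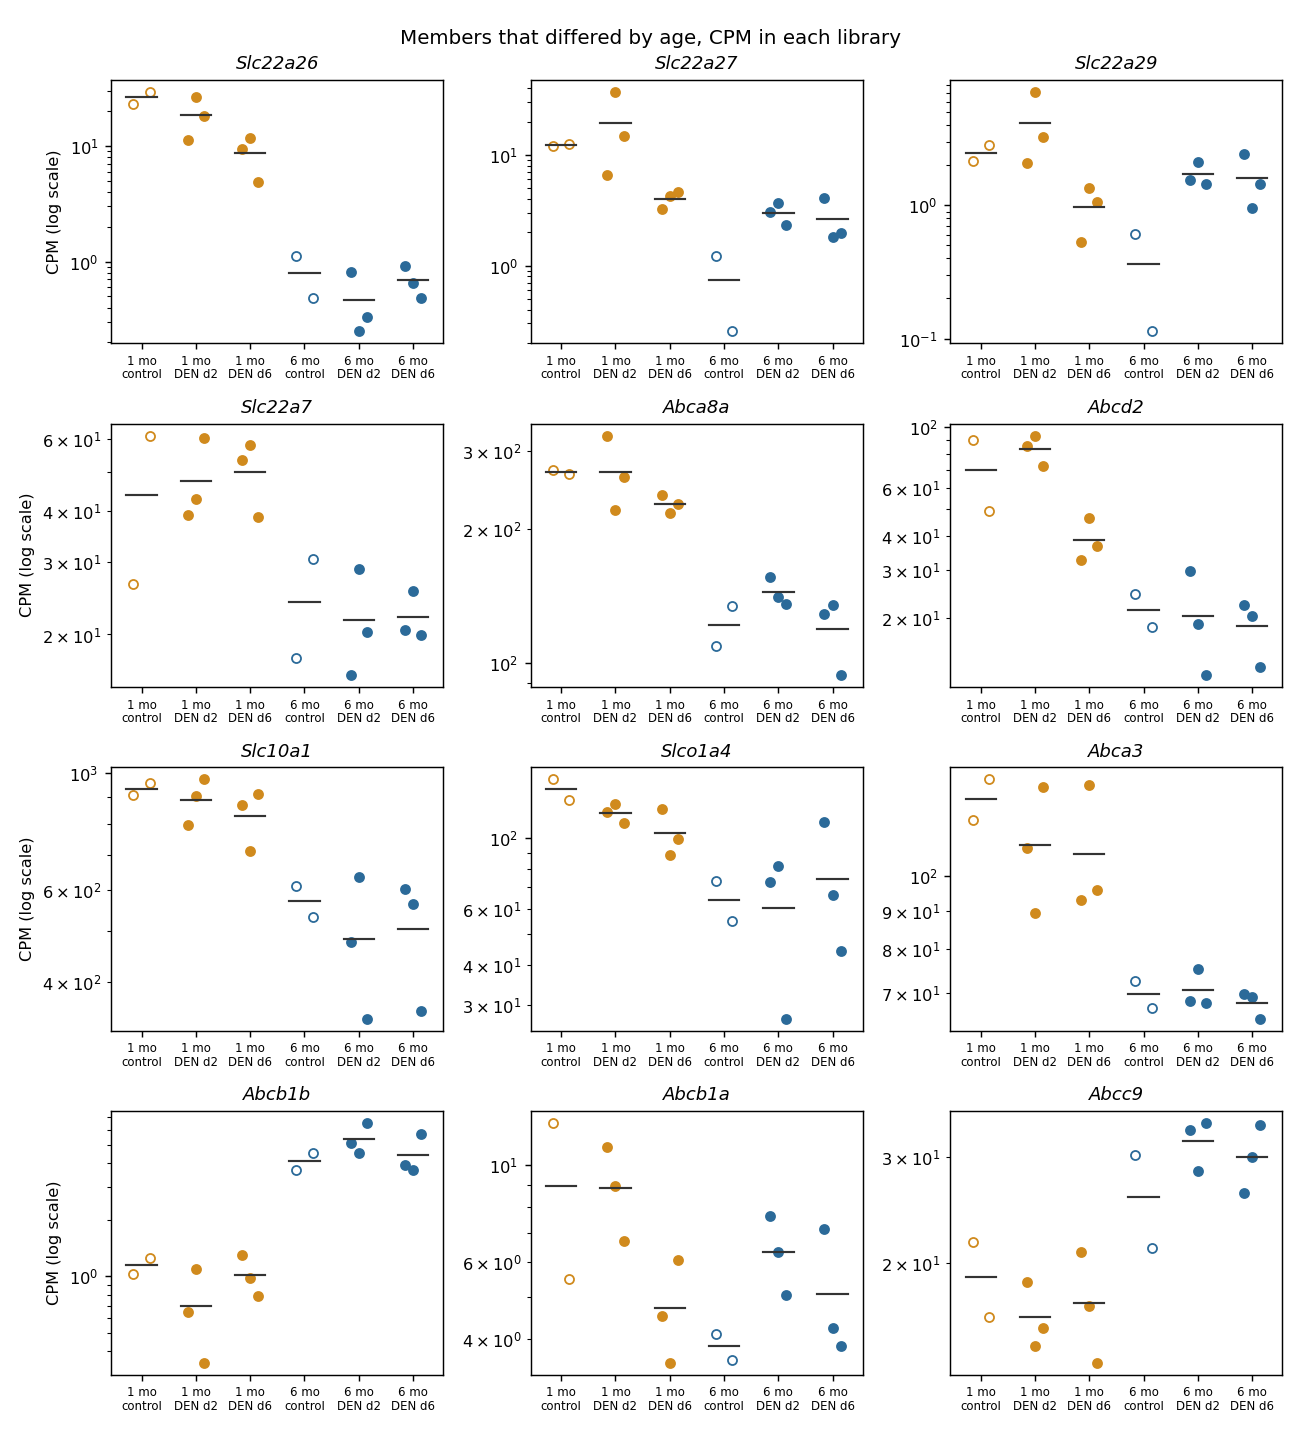
CPM (log scale) of 12 members in each of 16 libraries by group; orange, 1 month; blue, 6 months; open, control; filled, DEN; lines are group means. Slc22a26, Abca8a, Abcd2, Slc10a1 and Abca3 are lower in every 6-month library than in any 1-month library, and Abcb1b is higher in every one (0.349 to 1.3 against 3.68 to 6.51 CPM).

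In total, 6 members (Abca3, Abca8a, Abcb6, Abcd2, Slc10a1 and Slc22a26) had all 8 older libraries below all 8 younger ones, as did 1.71% of all genes tested. The opposite held for 1 member, Abcb1b, and for 1.97% of all genes.

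Among 26 tested companions of these transporters (nuclear receptors, bile acid enzymes and other carriers, 27 of 28 listed being found), 2 were higher and 5 lower at 6 months on average, beside 12.1% and 10.5% of all genes. Cyp7b1, an oxysterol hydroxylase of the acidic bile acid pathway, rose by 2.28 (SE 0.21, adjusted p = 6.70e-06) and was also higher in controls alone (2.69, SE 0.41, adjusted p = 0.00404). Nfe2l2, the oxidative stress factor NRF2, rose by 0.39 (SE 0.10, adjusted p = 0.0146) on average, but by 0.10 in controls alone (SE 0.19, adjusted p = 0.908). Its log2 response to DEN on days 2 and 6 was 0.43 and 0.05 at 1 month and 0.73 and 0.61 at 6 months. None of these responses passed. Averaged over conditions, the pregnane receptor Nr1i2 was lower at 6 months by -0.39 (SE 0.07, adjusted p = 0.00163), and the nucleoside carrier Slc29a1 by -0.53 (SE 0.12, adjusted p = 0.00742). The fatty acid and bile acid ligases Slc27a2 and Slc27a5 were lower by -0.53 and -0.33. Slc16a1, the lactate carrier, was the last of these (log2 -0.56, SE 0.21, adjusted p = 0.0794). Without the 3 libraries of low clock score Slc27a5 and Slc16a1 no longer passed (adjusted p = 0.17 and 0.55).

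The next question was which transporters responded to DEN. In each single comparison of a DEN group with its age's controls, none of 67 members passed with edgeR. At 1 month, the background was 0.0191% of all genes on day 2 (0.0128% higher) and 0% on day 6. An unadjusted p under 0.05 was held by 3 and 8 members, beside 1123 and 426 of all 15684 genes. At 6 months, the background was 0.319% on day 2 (0.0765% lower) and 0.249% on day 6 (0.0574% lower). Such an unadjusted p was held by 5 and 4 members, beside 629 and 469 of all genes. DESeq2 called 2 members on each day at 6 months, Slc22a3 and Slc22a29, and none at 1 month. Over all genes it called 119 on day 2 and 85 on day 6 at 6 months, and 91 and 19 at 1 month. The 4 comparisons share controls within an age.

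Averaged over the 4 DEN groups (12 libraries) against the 4 controls, 1 member passed, Slc22a3, beside 0.465% of all genes. Slc22a3 encodes the extraneuronal monoamine and organic cation carrier OCT3 and lies on the minus strand of chromosome 17 (12419972 to 12507704), in 1 cluster with Slc22a2. The 250 bases before its RefSeq start site (GRCm38.p6, chr17:12507705-12507954, minus strand) are given for the member that edgeR called in the DEN average, and neither motif is in them.
Slc22a3: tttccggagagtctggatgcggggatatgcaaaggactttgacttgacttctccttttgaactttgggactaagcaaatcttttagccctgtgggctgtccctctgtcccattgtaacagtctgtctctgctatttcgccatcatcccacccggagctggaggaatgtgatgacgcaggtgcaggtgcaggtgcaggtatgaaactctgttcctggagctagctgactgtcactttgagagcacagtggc

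Slc22a3 had 5.18 and 4.15 CPM in 1-month controls and 4.95 and 3.93 CPM in 6-month controls. It measured 2.16, 1.64 and 3.14 CPM on day 2 and 1.44, 2.78 and 2.28 CPM on day 6 at 1 month. At 6 months the values were 1.82, 2.13 and 1.43 CPM on day 2 and 1.69, 2.07 and 1.89 CPM on day 6. All 12 DEN libraries lay below all 4 controls, which held for no other member and for 0.0956% of all genes, and no member had all the DEN libraries above the controls (0.159% of all genes). The average log2 difference was -1.16 (SE 0.18, adjusted p = 0.00912, edgeR), a 2.24-fold lower level. Over single comparisons it was -1.01 and -1.09 at 1 month and -1.31 and -1.23 at 6 months, at adjusted p of 0.55, 1, 0.158 and 0.247. With DESeq2 both comparisons at 6 months passed, at adjusted p of 0.0102 and 0.0282. The gene had 1134 reads in all libraries together, so each value rests on few reads.

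No marker list for other cells had a member that passed in the DEN average, and 0 of 26 companions did.

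**Figure D4:**
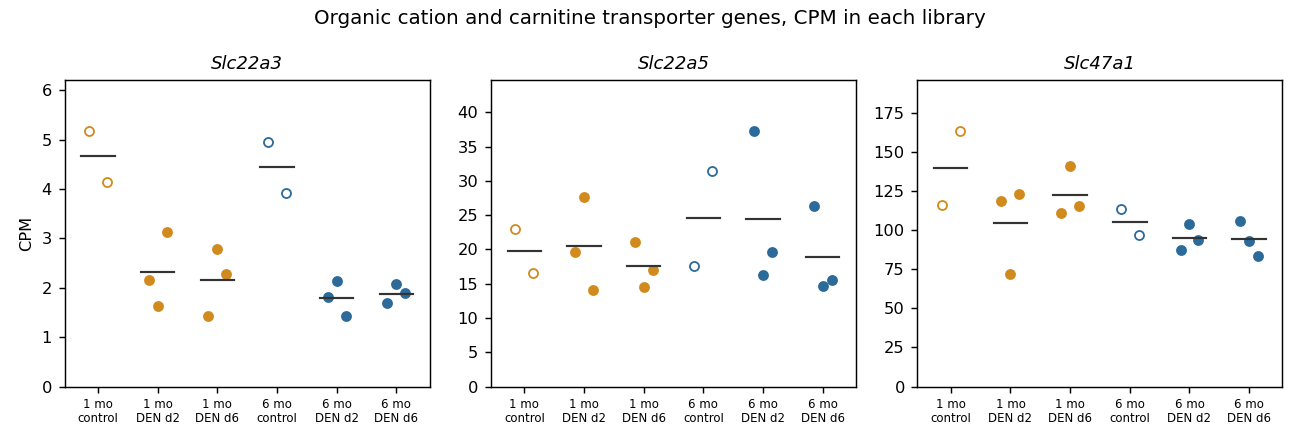
CPM of Slc22a3, Slc22a5 and Slc47a1 in each library by group, axes from 0; orange, 1 month; blue, 6 months; open, control; filled, DEN; lines are group means. For Slc22a3 the 4 controls (3.93 to 5.18 CPM) lie above all 12 DEN libraries (1.43 to 3.14 CPM), while control and DEN libraries of Slc22a5 and Slc47a1 overlap.

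For the other transporters the intervals bound how large a shared response could be. The 95% interval of the DEN average lay within 1.5-fold either way for 45 of 67 members and within 2-fold for 57. It was -0.50 to 0.17 for Slc10a1, -0.15 to 0.31 for Slco1a1 and -0.42 to 0.03 for Slco1b2 on the log2 scale. For canalicular genes it was -0.94 to 0.39 for Abcb11, -0.31 to 0.29 for Abcc2 and -0.08 to 0.24 for Abcg2. Abcc3 had an interval below 0 (-0.47 to -0.03) but an adjusted p of 0.942.

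Whether the response to DEN differed between ages was tested as an interaction, and 0 of 67 members passed (0.00638% of all genes). An unadjusted p under 0.05 was held by 3 members and by 372 of all genes. DESeq2 called 0 members and 16 of all genes. Slc22a29 and Slc22a27, of the chromosome 19 cluster, had the smallest p-values of the members, with an adjusted p of 1 for both (edgeR). Slc22a27 had 6.62, 37.3 and 14.9 CPM on day 2 and 3.21, 4.25 and 4.6 CPM on day 6 at 1 month. At 6 months it had 3.04, 3.68 and 2.32 CPM on day 2 and 4.11, 1.82 and 1.97 CPM on day 6. Thus all day 6 libraries were below the controls at 1 month and above them at 6 months, where the controls had 0.256 and 1.21 CPM. Such opposite responses without overlap on day 6 were seen in 5 members and in 1.15% of all genes. With no filter on low counts both genes passed for the interaction (adjusted p = 0.000935 for Slc22a27 and 0.00765 for Slc22a29), beside 48 of all 28129 genes.

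Because many transporters cycle over the day, the clock score was fitted beside the groups. With it, 19 of 67 members passed for a slope, 8 rising and 11 falling with the score, beside 23.6% of all genes (10.6% rising and 13% falling). Without the 3 libraries of low score, 2 members passed, Abcg5 and Slco1a4 (0.37 per unit, adjusted p = 0.0222), and over all genes the calls went from 3707 of 15684 to 227 of 16058. The slope is a log2 change in level per unit of score, over a score range of -2.19 to 4.93.

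Abcb11 fell most clearly, by -0.23 per unit (SE 0.03, adjusted p = 7.37e-05). It had 1276, 1297 and 1068 CPM in the 3 libraries of low score and 336 to 862 CPM in the other 13. Without those 3 the slope was -0.23 as before, but its adjusted p was 0.136. Slc22a15 (-0.20, SE 0.03, adjusted p = 0.000492), Abca2 (-0.12, SE 0.02, adjusted p = 0.000656) and the prostaglandin carrier Slco2a1 (-0.15, SE 0.02, adjusted p = 0.000898) fell too. Without the 3 libraries their slopes were -0.16, -0.13 and -0.10, at adjusted p of 0.346, 0.245 and 0.449. Slc10a2 fell by -0.24 per unit (SE 0.04, adjusted p = 0.00153), and by -0.18 without the 3 libraries (adjusted p = 0.424). Of 6 tested cholangiocyte markers 3 (Sox9, Krt19 and Krt7) fell with the score as well, and 0 passed without the 3 libraries. The summed cholangiocyte level was 39.9 to 62.4 CPM in the 3 libraries and 36.7 to 83.7 CPM in the others, and its part was not tested.

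Rising with the score were Abcb1a (0.14, SE 0.03, adjusted p = 0.00352), Abcg5 (0.12, SE 0.02, adjusted p = 0.00412) and the carnitine carrier Slc22a5 (0.13, SE 0.04, adjusted p = 0.0399). Abcg5 passed without the 3 libraries, with a slope of 0.22 (adjusted p = 0.0442), whereas Abcb1a (0.18, adjusted p = 0.198) and Slc22a5 (0.19, adjusted p = 0.348) did not. Slc22a5 also did not pass without 1-month DEN day 2 replicate 3 alone (adjusted p = 0.127). Of the top 12 by p-value, Abca8b, Slc10a7, Abca7 and Slco1a6 fell, by -0.12, -0.07, -0.06 and -0.19 per unit, and none of these passed without the 3 libraries (adjusted p = 0.428, 0.528, 0.69 and 0.896). Slc10a7 did not pass without 1-month DEN day 2 replicate 3 alone (adjusted p = 0.137). Neither Abca7 nor Slco1a6 passed without 1-month control replicate 1 or 2 or 1-month DEN day 6 replicate 1 or 2, nor did Abca7 without 6-month DEN day 6 replicate 3. Mitochondrial share and clock score moved together in the 3 libraries, and the share's part in these slopes was not tested.

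**Figure D5:**
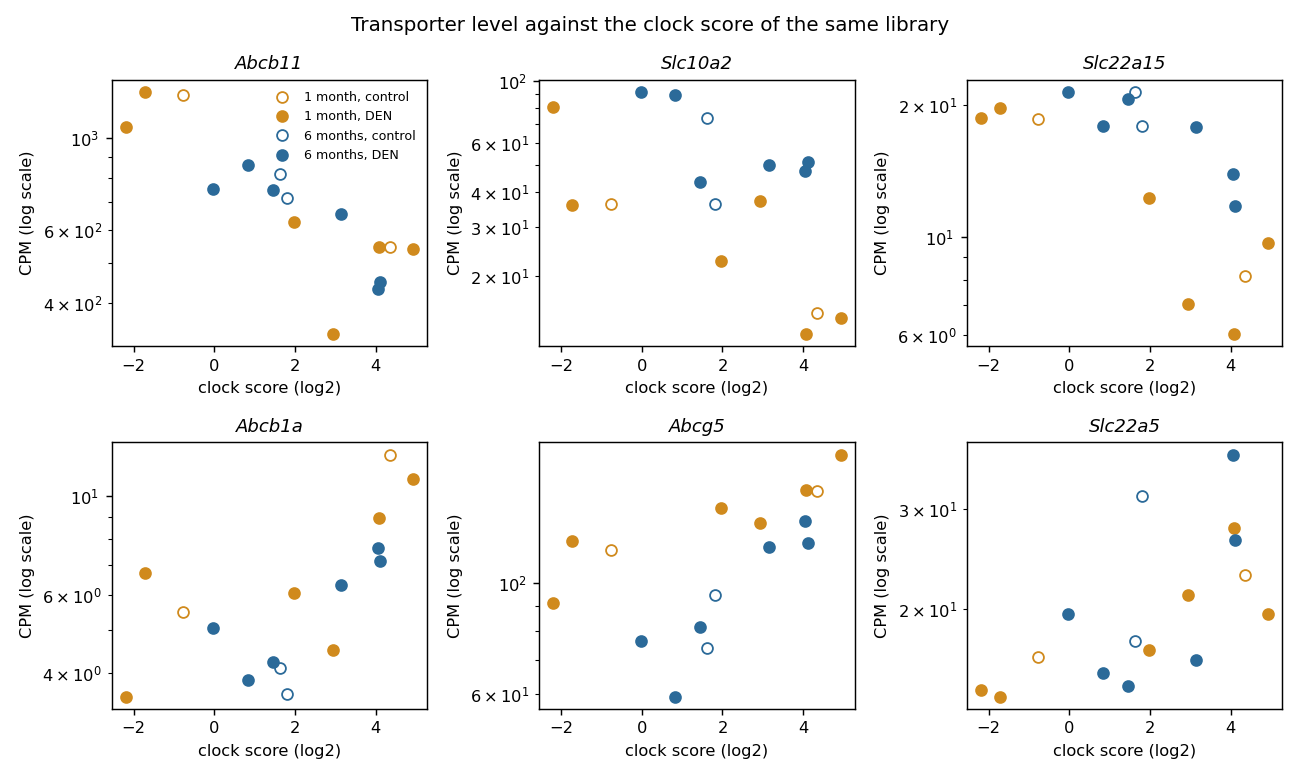
CPM (vertical axis, log scale) of 6 members against the clock score (log2) of the same library; orange, 1 month; blue, 6 months; open, control; filled, DEN. Abcb11 is highest (1068 to 1297 CPM) in the 3 libraries whose scores are -2.19 to -0.77, and Abcb1a and Abcg5 are, within each age, highest in the libraries whose score is over 4.

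Of the 26 companions, 4 rose and 7 fell with the score, beside 10.6% and 13% of all genes, and 3 rose and 0 fell without the 3 libraries. Cyp7a1, the rate-limiting enzyme of bile acid synthesis, rose by 0.48 per unit (SE 0.07, adjusted p = 0.000337) and the bile acid receptor Nr1h4 (FXR) by 0.12 (SE 0.02, adjusted p = 0.000651). Its target Nr0b2 (SHP), which represses Cyp7a1, fell by -0.17 per unit (SE 0.05, adjusted p = 0.0321), and the lactate carrier Slc16a1 by -0.17 (SE 0.02, adjusted p = 2.76e-05). Without the 3 libraries the slopes were 0.55 for Cyp7a1 (adjusted p = 0.0983), 0.19 for Nr1h4 (adjusted p = 0.0245), -0.04 for Nr0b2 (adjusted p = 0.928) and -0.15 for Slc16a1 (adjusted p = 0.109). With the score as a covariate, all 24 age differences of members and that of Slc22a3 after DEN passed again.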

How the data were processed

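RNA of 16 mouse liver libraries was analysed from a table of raw counts per gene that the authors deposited. Per the labels and methods, libraries were made with a TruSeq kit and sequenced on an Illumina NextSeq, and reads were mapped with TopHat2 2.0.13 to GRCm38. The submitters' processing notes also name cutadapt 1.7.1l, Cufflinks 2.2.1 and DESeq2 1.10.1. Which program counted the reads, and whether it used strand, is not stated in what was read for this work, so values of overlapping or antisense genes (Abcg5 with Abcg8, Abcb11 with Gm13613, Abca3 with D330041H03Rik, Slco1a6 with Gm20400) are uncertain. The 16 columns of normalized counts and the authors' fold changes and adjusted p-values of each comparison were not used, and 10 genes without counts were left out.

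Groups came from the sample labels. Counts were scaled by TMM, filtered with filterByExpr by the 6 groups (15684 genes, 67 members) and tested with edgeR 4.0.16 (R 4.3.3) quasi-likelihood in 1 model of 6 groups, with Benjamini-Hochberg adjustment over all genes and a threshold of 0.1, that of the study. CPM uses TMM-scaled sizes. SE is the size of the log2 change over the square root of F. Exon lengths came from GENCODE M21 and promoters from RefSeq. Named were members that passed (the 12 of smallest p where more did) and well-known liver transporters by role, while Slc10a6, Slc22a4, Slc22a21, Slc22a28 and Slc22a30 were named after their values were seen. Alternatives were RLE scaling, no filter, DESeq2 1.42.0, only the groups compared, a replicate block, the clock score as covariate, leaving out the 3 libraries of low score, and leaving out each library. Members, lists and tests were chosen with earlier results of these data known. The scripts were tested on simulated data. Some members are counted but not reported here by name.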

Additional observations from a re-analysis of the deposited data

Results flagged for a closer look

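In all, 5 members (Abcc2, Abcg2, Abca14, Slc22a27 and Slc22a29) had day 6 responses to DEN in opposite directions at the 2 ages with no overlap between DEN and control libraries, as did 1.15% of all genes tested (7.46% of the 67 members). On day 2 no member did, against 1.45% of all genes. The tested difference was the log2 response at 6 months minus that at 1 month on day 6. It was 3.57 for Slc22a27 and 3.62 for Slc22a29, both of the chromosome 19 cluster. It was 3.11 for Abca14, 0.49 for Abcc2 and -0.43 for Abcg2. The joint interaction test over both days gave adjusted p = 1 for each in edgeR. Abca14 lay under 1 CPM in every library, and 1 younger and 3 older libraries reached the level the filter asks of 2. No group had the 4 samples needed to test for a sample far from the others.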

How the results depend on the processing

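The count of members that differed by age in controls, 7, became 11 with no filter, 2 with only the groups compared, 11 with the clock score as covariate and 2 to 9 when 1 library was left out. It fell to 4 without either 1-month control or 6-month control replicate 1, and to 2 without 6-month control replicate 2. The 24 age differences averaged over conditions became 17 to 25 without 1 library. For DEN at 1 month, the count of 0 became 0 to 1 without 1 library on day 2 (Abcc10, without DEN day 2 replicate 1) and 2 with no filter on day 6 (Slc22a26 and Slc22a27). At 6 months on day 2 it became 3 with no filter (Slc22a3, Slc22a27 and Slc22a29), 2 with DESeq2, 1 without the 3 libraries of low clock score (Slc22a3) and 0 to 1 without 1 library. On day 6 it became 3 with no filter and 2 with DESeq2. Calls over all genes moved too. In the age comparison of controls 418 became 794 with no filter, 111 with only the groups compared and 843 with the covariate. For DEN day 6 at 1 month 0 became 49 with no filter. At 6 months, 50 on day 2 became 135 with no filter and 119 with DESeq2, and 39 on day 6 became 93 and 85. The interaction count of 0 became 2 with no filter, where calls over all genes went from 1 to 48. The DEN average kept its 1 call, Slc22a3, under all 22 alternatives. That call came nearest to the threshold without 1-month control replicate 1 or 6-month control replicate 1, at a log2 difference of -1.08 in each. The 19 clock score slopes became 2 without the 3 libraries and 11 to 28 without 1 library, with 11 when either 1-month control was left out. Slopes of Slco2b1 and Abca3 turned from negative to 0.0207 and 0.0253 without the 3 libraries. The causes were not tested. Over 51 calls and their alternatives, 937 of 1109 kept direction and threshold, 170 kept only the direction and 2 turned. RLE scaling and DESeq2 kept all 51, and no filter 44. Whether replicate numbers pair the samples cannot be told from so few libraries. Of 36 same-numbered pairs of libraries, 16 had a correlation of deviations over 0.1 (range -0.30 to 0.59). The median was 0.05 for same-numbered pairs and -0.04 for others. With a replicate block the counts were 7 in controls, 24 on average by age, 0 for each DEN comparison and the interaction, and 1 for the DEN average. The slope count was 13, where Slc10a7, Slc22a5, Abca7 and Slco1a6 were among those lost. Members under about 1 CPM rest on few reads, and the 2 control libraries per age limit each comparison with controls.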
